A study of Mus musculus with 8 samples.

Results

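Collagens and other genes of the extracellular matrix were followed across the livers of 8 mice. The group was defined by gene symbol alone. It takes every gene whose symbol begins with Col, Timp, Mmp, Fbn, Fbln, Lama, Lamb or Lamc and a digit, together with Sparc, Dcn, Lum, Bgn, Lox, Fn1, Nid1, Acta2, Tagln, Des and Pdgfrb. The rule found 99 probe sets for 70 genes, of 12422 probe sets and 8251 named genes on the array, and each gene was read from its brightest probe set. Of the 70 genes, 30 were bright enough to test, with a mean intensity of at least 165.2, the median of all values. Of the other 40, 13 averaged under 37.2, the floor set for log values, and 8 of these lay under it in all 8 mice. All 8 mice were female Ames dwarf mice (df/df) that had been given 30% less food than dwarf females feeding freely, and they were killed at 24 to 26 months. In df/df mice the pituitary lacks growth hormone, prolactin and thyrotropin, and the animals stay small and live long. The mice form 1 group, with RNA from each liver on its own Affymetrix U74Av2 array, so the comparisons are between mice, numbered 1 to 8 as in the labels. Unrestricted dwarf mice and animals not carrying df were not analysed here.

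The liver holds little matrix when healthy. Fibrillar collagens are made mostly by stellate cells and portal fibroblasts, and they accumulate in fibrosis. Basement membrane collagens and laminins come from endothelial, stellate and biliary cells, while hepatocytes secrete plasma fibronectin and collagen XVIII. Matrix metalloproteinases cut these proteins, and the tissue inhibitors of metalloproteinases (Timp) hold the enzymes in check.

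Several facts of the arrays bear on the values. The trimmed mean intensity was 500.4 on every array, so the deposited values had already been scaled. The ratio of the 5′ to the 3′ probe set of Gapdh, a sign of RNA integrity, was 0.375 in mouse 5 and 0.937 to 1.26 in the other 7 mice, and the same ratio for pyruvate carboxylase was 0.0246 in mouse 5 and 0.109 to 0.379 in the others. That of actin (0.627 in mouse 5) lay within the range of the others. The Cre hybridization controls averaged 13288 to 14777 in mice 1 to 4 and 9259.5 to 10861 in mice 5 to 8, so relations between genes were also taken within these 2 sets of 4 arrays. RNA came from whole liver, in which fewer cells of a type and less RNA per cell cannot be told apart.

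The matrix genes did not form a single block. Among the 30 tested genes the range between mice (highest over lowest intensity) ran from 1.24-fold for Des to 8.59-fold for Mmp12, with a median of 1.89-fold, against a median of 1.61-fold over all 4869 tested genes. A range of at least 2-fold was seen in 13 of the 30 (43.3%), against 23.4% of all tested genes. Without mouse 5 the count was 11 of 30 (36.7%), against 17.9% of all genes. These shares, and those given for each class below, were not matched for brightness. The spread usual at a gene's brightness is larger for dim genes, with a log2 SD of 0.37 for Lama4 and 0.20 for Fn1. In limma's F test of each gene's variance against the variance usual at its brightness, 0 of the 30 passed at an adjusted p under 0.05, as did 0% of all genes, and the lowest adjusted p of a matrix gene was 0.647 (Mmp12). At an unadjusted p under 0.05 the F test marked 3 of the 30 (Mmp12, Col9a1 and Col4a1), against 5.65% of all genes. Mmp12 passed the brightness threshold only through the 2 mice in which it was high, so its spread was part of its selection. Without Mmp12 the F test marked 2 of 29, the lowest adjusted p was 0.723, and 12 of 29 (41.4%) ranged at least 2-fold. Mouse 6 had the highest value for 8 of the 30 matrix genes (26.7%) and for 16.2% of all tested genes. Mouse 5 had the lowest value for 10 of the 30 (33.3%) and for 21.0% of all tested genes.

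**Figure D1:**
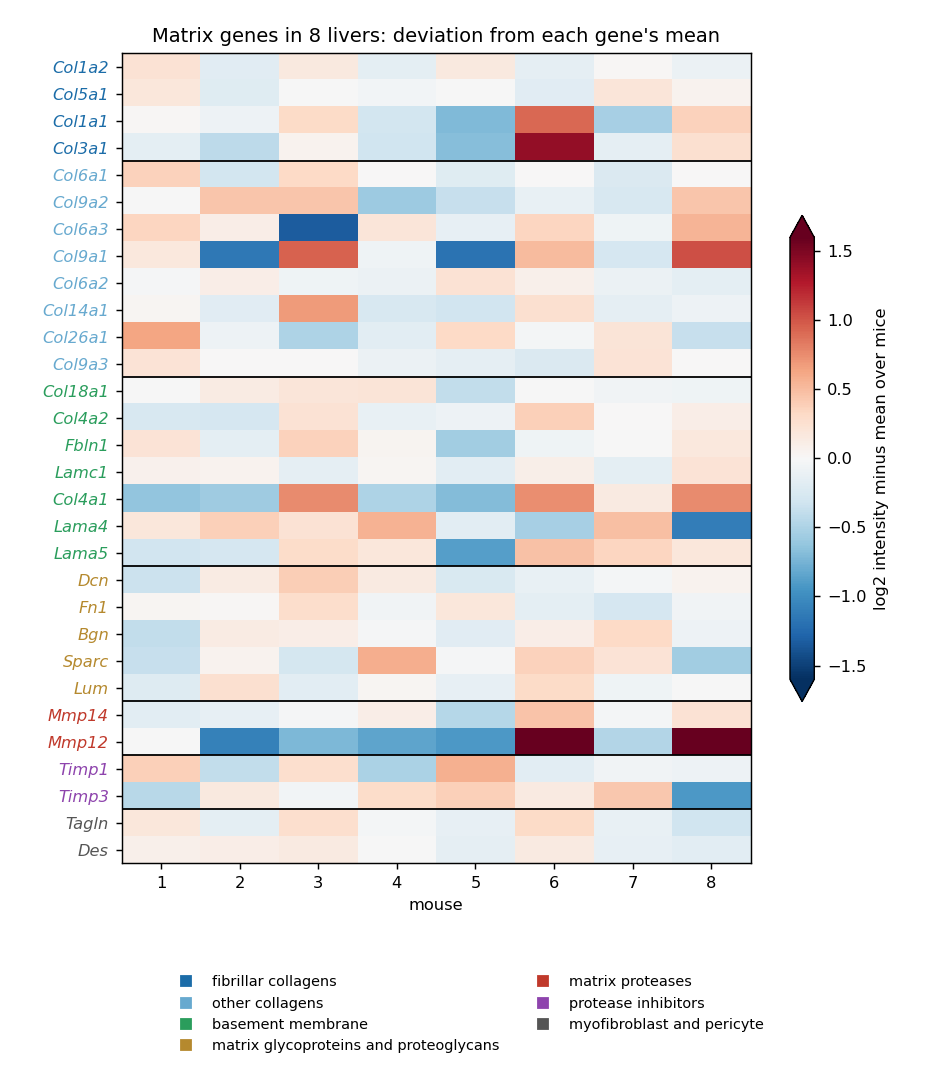
Deviation of log2 intensity from each gene's mean over the 8 mice (colour) for the 30 tested matrix genes (rows, coloured by role) in mice 1 to 8 (columns). Col1a1 and Col3a1 are highest in mouse 6, Col4a1 is high in mice 3, 6 and 8, and Mmp12 is high in mice 6 and 8.

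**Figure D2:**
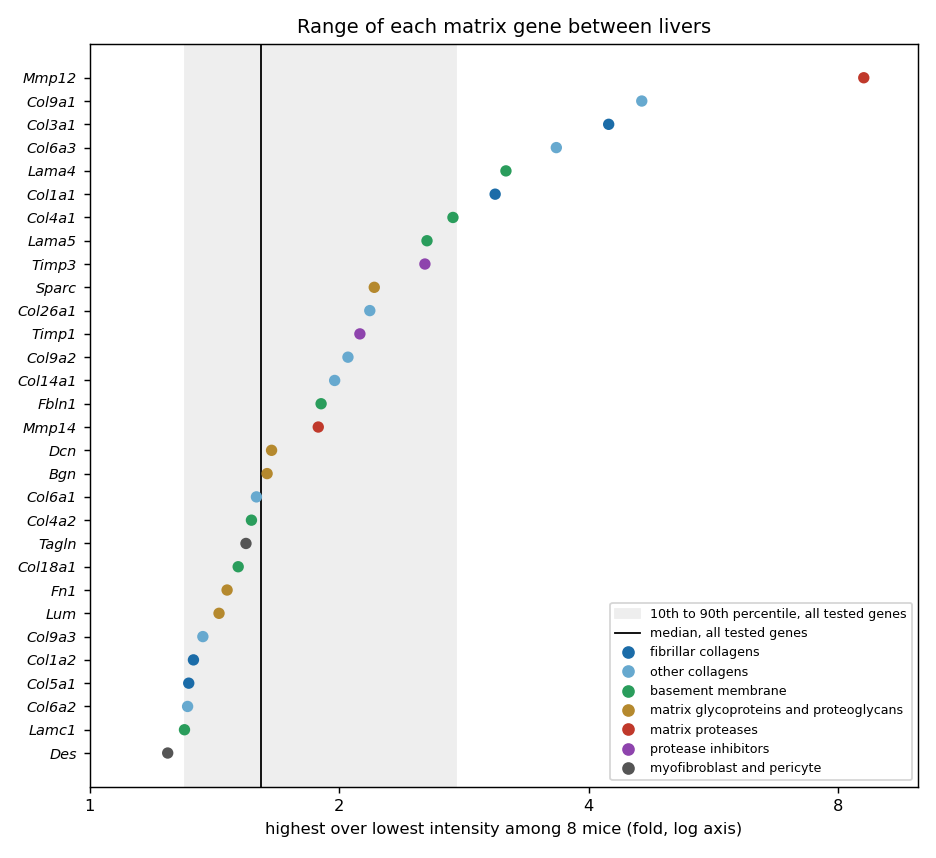
Highest over lowest intensity among the 8 mice (log axis) for each tested matrix gene, with a band for the 10th to 90th percentile and a line for the median of all tested genes. Mmp12, Col9a1, Col3a1, Col6a3, Lama4 and Col1a1 lie beyond the 90th percentile of all genes (2.77-fold), and Des lies lowest at 1.24-fold.

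Among the fibrillar collagens, which form the cross-banded fibres of connective tissue, Col1a1 and Col3a1 varied most between livers. Col1a1, the alpha 1 chain of collagen I, read 314 in mouse 5 at the lowest, 498 at the median and 969 in mouse 6 at the highest. Its values in mice 8 and 3 (660.0 and 630.2) came next, and the range was 3.08-fold (F test unadjusted p = 0.0580, adjusted p = 0.824). Col3a1, the chain of collagen III, had its lowest value in mouse 5 (139.7), a median of 201 and its highest value in mouse 6 (591). Mouse 6 stood apart for Col3a1, since the other 7 mice lay between 139.7 and 266, and the range was 4.23-fold (F test adjusted p = 0.899). These values come from 1 of 3 probe sets of Col3a1. A dimmer set, with a mean of 54.3 below the test threshold, gave r = 0.535 with it. That dimmer set was highest in mouse 3 (91.4), with 68.6 in mouse 6. The third set lay under the floor in all 8 mice. Col5a1, a chain of the collagen V that starts fibrils, stayed between 525 and 691 with a median of 600.0 (1.32-fold). A dimmer probe set of Col5a1, with a mean of 85.85 below the test threshold, did not follow it (r = -0.410) and ranged 3.73-fold. That set read 139 in mouse 6, 114 in mouse 8 and 28.4, under the floor, in mouse 5. The other members of this class, Col5a2, Col11a1, Col2a1 and Col11a2, had mean intensities from 23.7 to 82.1 and were too dim to test.

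Probe sets decided what could be read of Col1a2, the alpha 2 chain that joins 2 alpha 1 chains in collagen I. Its brighter probe set, whose name ends in r because it was designed under relaxed rules, read from 1383 in mouse 2 to 1845 in mouse 1 with a median of 1528 (1.33-fold). Its dimmer probe set, with a mean of 124 below the test threshold, read 367 in mouse 6, 153 in mouse 3, 126 in mouse 8, 110 in mouse 1, 96.8 in mouse 4 and 35.8 to 53.0 in mice 2, 5 and 7. That dimmer set was singled out after its values were seen, and its highest value was in the same mouse as those of Col1a1 and Col3a1. Col1a1 itself had a second, dimmer probe set, which read 750.0 in mouse 6, 294 in mouse 8, 187 in mouse 3 and 64.8 to 127 in the other 5 mice (11.6-fold). That set passed the brightness threshold only through mouse 6, since its mean over the other 7 mice was 137, so its values are given as a description. Mice 6, 8 and 3 were the 3 highest on both sets of Col1a1. The range of Col1a1 was therefore 3.08-fold on 1 probe set and 11.6-fold on the other.

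On their brightest probe sets Col1a1 and Col3a1 moved together. Over the 8 mice r was 0.890 (exact two-sided permutation p = 0.00169, adjusted p = 0.0128 over 11 gene pairs), and rho was 0.833 (exact permutation p = 0.0154, adjusted p = 0.169). Without mice 5 and 6, the farthest from the Col1a1 median, r was 0.677, and leaving out mouse 6 alone gave 0.813 with an adjusted p of 0.144 by the same exact permutation test. Within the 2 sets of arrays r was 0.939 (exact permutation p within sets = 0.00521). The call ended without mouse 5 (r = 0.865, exact permutation test, adjusted p = 0.0546), by rank, and with arrays scaled to a common median (r = 0.867, exact permutation test, adjusted p = 0.0551). On the brighter probe set, Col1a2 did not follow either gene (r = -0.292 with Col1a1 and -0.331 with Col3a1, adjusted p = 0.888 for both by the exact permutation test).

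The promoter of Col3a1 is shown because Col3a1 is 1 of the 2 genes of this pair and the table held a window for it. The window runs from 250 bases before to 50 after the start site (RefSeq, GRCm38.p6, chr1:45311288-45311587, plus strand). Capitals mark matches on either strand to a CCAAT box (CCAAT), a GC box (GGGCGG) or a TATA box (TATAAA). The only match here was TATAAA, 117 bases before the start site. Of 32851 promoter windows of this length, 13.6% hold TATAAA, 37.4% CCAAT and 35.7% GGGCGG. Of the 30 tested matrix genes, 20 had 1 or 2 windows in the table. In any of their windows 2 of these genes held TATAAA, 7 CCAAT and 14 GGGCGG. These counts are per gene and the shares above are per window, so they are not like measures.
Col3a1: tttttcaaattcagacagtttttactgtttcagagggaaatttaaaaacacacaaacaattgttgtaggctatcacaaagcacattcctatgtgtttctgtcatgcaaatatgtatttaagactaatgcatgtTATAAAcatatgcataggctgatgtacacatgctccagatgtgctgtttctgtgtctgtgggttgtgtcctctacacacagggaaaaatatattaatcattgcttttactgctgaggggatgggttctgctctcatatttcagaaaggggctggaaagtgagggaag

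Basement membranes are thin sheets of collagen IV and laminin under epithelia and around vessels, and sparse ones line the liver sinusoids. Of 19 genes in this class 7 were bright enough to test, and 3 of them (42.9%) ranged at least 2-fold, against 23.4% of all tested genes. Col4a1, a chain of the collagen IV network, was highest in mice 8, 3 and 6 (665, 660.5 and 658), stood at 432 in mouse 7 and lay between 242 and 279 in mice 1, 2, 4 and 5. Its median was 355 and its range 2.74-fold (F test unadjusted p = 0.0327, adjusted p = 0.723). Col4a2, the chain that pairs with it, read from 610.1 in mouse 2 to 956 in mouse 6 with a median of 713. Mice 6, 3 and 8 were the 3 highest for this chain too (956, 861 and 786), but the range was smaller, at 1.57-fold.

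Col4a1 and Col4a2 are neighbours on chromosome 8 and are transcribed in opposite directions from a shared promoter region. Their windows are shown because these 2 genes ran together. The start sites lie 21 bases apart, and the windows share 78 bases. Col4a1 lies on the minus strand (chr8:11312777-11313076) and Col4a2 on the plus strand (chr8:11312555-11312854), both from RefSeq with build GRCm38.p6 and with capitals as above. The first bases of the CCAAT matches lay 145 bases before the start of Col4a1, where the letters read ATTGG, and 32 bases before that of Col4a2. The GC boxes began 9 bases after the start of Col4a1, and 192 and 48 bases before and 7 after that of Col4a2. The 6 bases of the GC box after each start site are the same in both windows. Neither window held TATAAA.
Col4a1: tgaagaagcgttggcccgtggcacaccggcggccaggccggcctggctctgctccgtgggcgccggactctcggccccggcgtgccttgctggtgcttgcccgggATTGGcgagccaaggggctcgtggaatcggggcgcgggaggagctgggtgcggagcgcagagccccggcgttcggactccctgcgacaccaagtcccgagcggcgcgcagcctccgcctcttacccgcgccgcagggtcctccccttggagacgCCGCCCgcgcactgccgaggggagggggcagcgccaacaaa
Col4a2: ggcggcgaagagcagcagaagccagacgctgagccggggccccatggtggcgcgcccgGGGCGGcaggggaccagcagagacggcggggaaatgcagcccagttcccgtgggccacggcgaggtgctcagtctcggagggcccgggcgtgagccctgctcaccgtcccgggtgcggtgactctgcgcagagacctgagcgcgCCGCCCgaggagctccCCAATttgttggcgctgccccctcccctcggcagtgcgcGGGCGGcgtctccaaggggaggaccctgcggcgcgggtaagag

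Over the mice the 2 genes gave r = 0.896 (exact two-sided permutation p = 0.00233, adjusted p = 0.0128 over 11 pairs) and rho = 0.738 (exact permutation p = 0.0458, adjusted p = 0.252). Without mice 3 and 8, the farthest from the Col4a1 median, r was 0.922. Within the 2 sets of arrays r was 0.879 (exact permutation p within sets = 0.00694). The correlation stayed between 0.873 and 0.930 when each mouse was left out in turn, but by the exact permutation test the adjusted p was 0.0720 without mouse 4, 0.0546 without mouse 5, 0.0655 without mouse 6 and 0.103 without mouse 7. The call also ended by rank and with arrays scaled to a common median, where r was 0.758 (exact permutation test, adjusted p = 0.202). Other neighbouring matrix genes that could be tested were Col6a1 with Col6a2 (r = -0.375) and Dcn with Lum (r = 0.131), both on chromosome 10, with adjusted p = 0.888 and 0.896 by the exact permutation test.

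**Figure D3:**
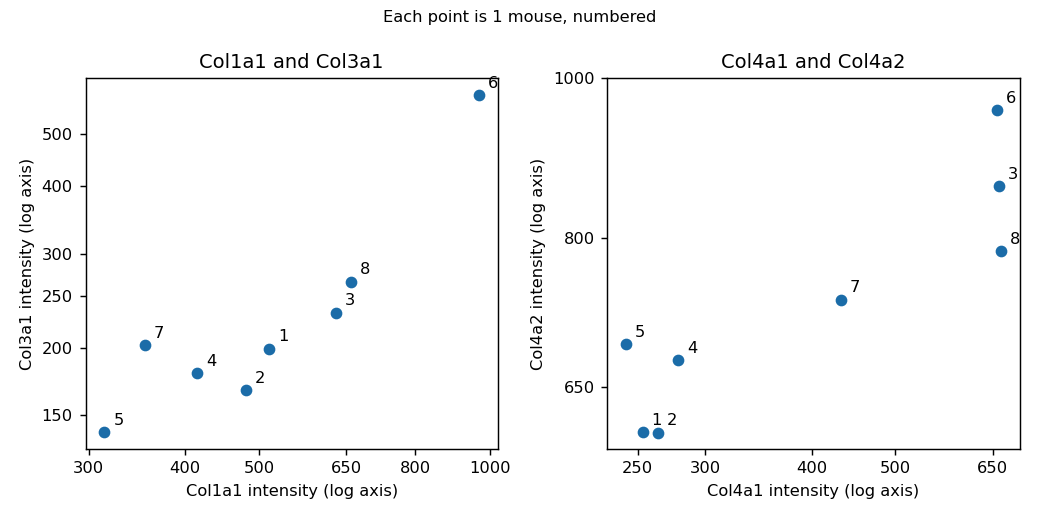
Intensity of Col3a1 against Col1a1 (left) and of Col4a2 against Col4a1 (right) on log axes, 1 numbered point per mouse. Mouse 6 lies far from the others for Col1a1 and Col3a1 (969 and 591), and mice 3, 6 and 8 lie together at the upper end for Col4a1 (658 to 665) with mouse 7 between them and the rest.

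The laminins, trimers that bind collagen IV and cell surface integrins, differed among themselves. Lama4, the alpha chain of vessel walls, read 80.5 in mouse 8 and 120 in mouse 6 at the low end, 200.1 at the median and 256 in mouse 4 at the high end (3.18-fold). Lama5, another alpha chain, read 92.8 in mouse 5, 194 at the median and 237 in mouse 6 (2.55-fold). A dimmer set of Lama5, with a mean of 101 below the test threshold, did not follow it (r = -0.422). That set was highest in mouse 3 (142) and read 117 in mouse 5 and 80.4 in mouse 6. The gamma chain gene Lamc1 stayed between 396.5 in mouse 5 and 516 in mouse 8, with a median of 459. This Lamc1 probe set is of the kind shared with related sequences. A second set of Lamc1, with a mean of 46.1 below the test threshold, did not follow it (r = -0.174) and was highest in mouse 5 (73.0). The summed level of 7 measured endothelial markers, led by Eng, was lowest in mouse 8 (1907) and highest in mouse 4 (3605), the mice with the lowest and the highest Lama4. The order differed elsewhere: mouse 5 had a sum of 3598 with a Lama4 value of 154, and mouse 1 a sum of 2221 with 197. Single markers also differed, and only Kdr and Tek were highest in mouse 4. Eng was highest in mouse 3, Pecam1 in mouse 1, Vwf in mouse 5, and Cdh5 and Lyve1 in mouse 6. Eng, Kdr, Tek and Vwf were lowest in mouse 8, Pecam1 and Cdh5 in mouse 3, and Lyve1 in mouse 1. The part of endothelial cells in the Lama4 values was not tested.

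Col18a1, the source of endostatin and a gene that hepatocytes express, averaged 5051 ± 634 (SD, n = 8) with a median of 4998, and it ranged 1.51-fold. Mouse 5 stood apart with 3831, and the others lay between 4778 and 5788. Of 3 further tested probe sets of Col18a1, 1 followed the brightest over the mice (r = 0.807, exact permutation p = 0.0128, adjusted p = 0.0385 over the 6 pairs of tested probe sets of 1 matrix gene; rho = 0.929, p = 0.00223, adjusted p = 0.0134; r = 0.873 without the 2 farthest mice). Another did not pass (r = 0.770, exact permutation test, adjusted p = 0.0539), and the third gave r = -0.482 (exact permutation test, adjusted p = 0.272) and read highest in mouse 5 (4397). The low Col18a1 value of mouse 5 was therefore not shared by all its probe sets, and the part of the low 5′ to 3′ ratio of that mouse was not tested. Fbln1, a fibulin of basement membranes and elastic fibres, read 302 in mouse 5, 451 at the median and 575 in mouse 3 (1.90-fold). The 12 other genes of the class had means from 9.56 (Col4a3) to 161 (Fbln2). Fbln2 lay just under the threshold, and Lama5 at 178 lay just above it.

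Of the other collagens, 8 of 16 were bright enough and 4 of these (50%) ranged at least 2-fold, against 23.4% of all tested genes. Col9a1, a chain of the collagen IX that coats cartilage fibrils, was highest in mice 8, 3 and 6 (465, 439 and 322), with a median of 237 and its lowest values in mice 2 and 5 (103 and 100.3). The range was 4.64-fold (F test unadjusted p = 0.0324, adjusted p = 0.723). The other chains of collagen IX took different courses. Col9a2 read 378 to 381 in mice 2, 3 and 8 and 186 in mouse 4 (2.05-fold), and Col9a3 stayed between 181 and 248. Thus mouse 2 was near the lowest for Col9a1 and among the 3 highest for Col9a2.

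Collagen VI forms beaded filaments next to cells. Its chain gene Col6a3 read 102 in mouse 3, where it stood apart, against 233 to 372 in the other 7 mice, and its median was 283 (3.66-fold, adjusted p = 0.901). Col6a1 was high in the same mouse 3 (593, with a lowest value of 387, a median of 476 and a highest of 615), and Col6a2 stayed between 229 and 301. Col14a1, which decorates collagen fibrils, read 177 in mouse 5, 202.5 at the median and 350.4 in mouse 3 (1.98-fold). Col26a1 read from 149 in mouse 3 to 325 in mouse 1 (2.18-fold), with a median of 202. The 8 untested genes of this class had mean intensities from 8.84 (Col22a1) to 123 (Col12a1).

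Of the proteoglycans and glycoproteins that fill the space between fibres, 1 of 5 tested (20%) ranged at least 2-fold, against 23.4% of all tested genes, and the median range was 1.64-fold. Dcn (decorin) and Bgn (biglycan), small proteoglycans that bind collagen and growth factors, averaged 4620.3 ± 754 and 1387 ± 205 (SD, n = 8), with ranges of 1.66-fold and 1.64-fold. Both were lowest in mouse 1 (3615 for Dcn and 1049.7 for Bgn), with medians of 4618 and 1416. Dcn was highest in mouse 3 (5992) and Bgn in mouse 7 (1718.5). Their correlation did not pass (r = 0.571, exact permutation p = 0.136, adjusted p = 0.498). The second tested probe set of Bgn, of the kind shared with related sequences, did not follow the first (r = -0.150, exact permutation test, adjusted p = 0.729) and ranged 2.05-fold. Lum (lumican), which spaces collagen fibrils, read from 198 in mouse 1 to 284 in mouse 6 with a median of 223. Fn1 (fibronectin) averaged 1966 ± 243 and ranged 1.46-fold, lowest in mouse 7 (1625) and highest in mouse 3 (2380.5).

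Sparc, a collagen-binding glycoprotein, was the only gene of this class whose brightest probe set ranged over 2-fold. It read 725 in mouse 4, 626 in mouse 6, 492 at the median, 377 in mouse 1 and 329 in mouse 8 (2.20-fold). It did not follow Col1a1 or Col3a1 (r = -0.168 and 0.111, adjusted p = 0.896 for both by the exact permutation test). Lox, whose enzyme cross-links collagen, and Fbn2, a fibrillin, averaged 15.6 and 24.5 and were too dim to test.

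Among the matrix proteases only Mmp12 and Mmp14 of 13 genes were bright enough. Mmp12 (macrophage elastase), an enzyme secreted mainly by macrophages, read 644 in mouse 8 and 643 in mouse 6, and 75.0 to 158 in the other 6 mice, with a median of 106. Its probe set is of the relaxed kind, like that of Col1a2. It passed the brightness threshold through those 2 mice, since the mean of the other 6 was 103. The F test gave an unadjusted p of 0.0235 and an adjusted p of 0.647 for its 8.59-fold range. Its second probe set, with a mean of 53.0, was likewise highest in mouse 6 (204.5) and next in mouse 8 (86.2). The sum of 10 measured macrophage markers, led by Mpeg1, was 29911 in mouse 6, 19033 in mouse 8 and 5007 to 10304 in the other 6 mice. None of the 10 averaged under the floor of 37.2. In 9 of the 10 the 2 highest mice were 6 and 8, and the other, the Kupffer cell marker Clec4f, was highest in mouse 2 (1362).

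Other leukocyte lists were mixed. The sum of 7 lymphocyte markers was highest in mice 6 and 8 (3711 and 3349, against 389 to 1343 in the others). Mice 6 and 8 were the 2 highest in 3 of the 7 (Ccl5, Ptprc and Ltb), which other leukocytes also express. The lineage markers Cd79a and Cd3e were highest in mouse 1 (300.2 and 113), and Cd3g and Cd8a averaged under the floor. The sum of 4 neutrophil markers was 979 in mouse 6 and 320 to 444 in the others, carried by S100a8 (556) and S100a9 (222). Camp was highest in mouse 2 (202), and Ngp averaged under the floor. The part of these cells in the Mmp12, Col1a1 and Col3a1 values was not tested.

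Mmp14, a membrane protease that cuts collagen I and activates Mmp2, read 602 in mouse 5, 812 at the median and 1136 in mouse 6, with mouse 8 second at 968.5 (1.89-fold). The other 11 proteases had means from 2.33 (Mmp10) to 115 (Mmp11). Mmp2, Mmp9 and Mmp13, which cut gelatin and collagen, were among them at 47.6, 18.5 and 46.1. In Mmp9, Mmp3, Mmp16, Mmp24 and Mmp10 all 8 mice lay under the floor.

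The inhibitors differed from the proteases in the mice that led. Timp1, the inhibitor induced in inflamed and fibrotic liver, read 1000.4 in mouse 5, 878 in mouse 1, 643 at the median and 472 in mouse 4 (2.12-fold). It was 598 in mouse 6, where Col1a1 and Col3a1 were highest, and it did not follow Col1a1 (r = -0.207, exact permutation p = 0.621, adjusted p = 0.896). Timp3, which binds to the matrix, read 756 in mouse 7 and 731 in mouse 5, 623 at the median, 414 in mouse 1 and 298 in mouse 8 (2.54-fold). Timp2 averaged 156, just under the threshold.

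**Figure D4:**
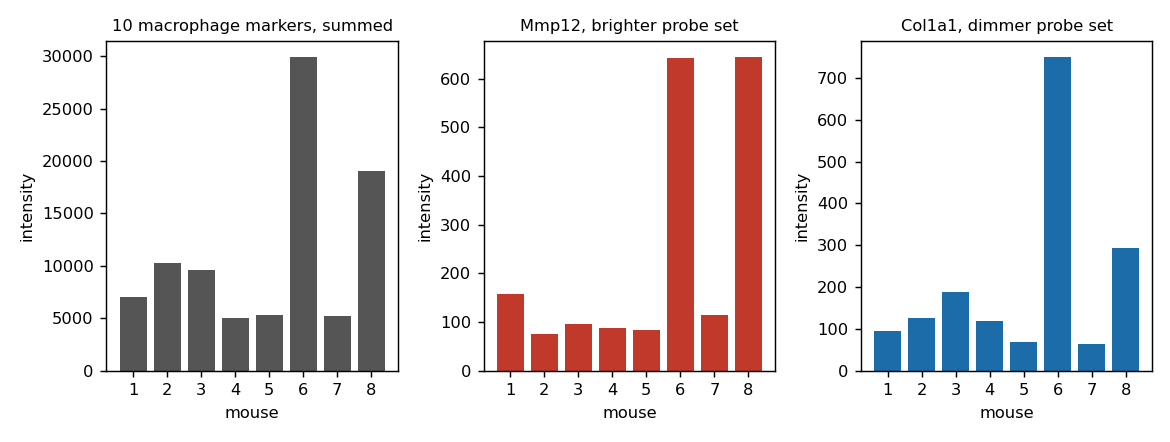
Intensity by mouse of the 10 macrophage markers summed (left), the brighter probe set of Mmp12 (middle) and the dimmer tested probe set of Col1a1 (right), bars from 0. Mice 6 and 8 are the 2 highest in all 3 panels. Mmp12 reads 643 and 644 in these mice against 75.0 to 158 in the others. Mmp12 passed the brightness threshold only through mice 6 and 8, and the Col1a1 set shown only through mouse 6. High values of these probe sets in those mice were therefore part of their selection. The brighter set of Col1a1, not shown, separated mice 8 and 3 little (660 and 630), below mouse 6 (969).

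Genes of contractile stellate cells and pericytes had narrow ranges or were dim. Des (desmin), an intermediate filament of rodent stellate cells, stayed between 152 in mouse 8 and 189 in mouse 6, with a median of 176 (1.24-fold). Tagln, an actin-binding protein of smooth muscle and myofibroblasts, read from 165.5 in mouse 8 to 255.5 in mouse 6, with a median of 195 (1.54-fold). Acta2 (smooth muscle actin, the usual marker of activated stellate cells) had a mean of 127, with 15.6 in mouse 5 and 229 in mouse 2 at its ends, and Pdgfrb had a mean of 83.3. Both were too dim to test. The sum of 5 measured stellate cell markers lay between 1024 in mouse 8 and 1765 in mouse 1, and it was 1326 in mouse 6. Reln led this sum, with a mean of 775 and 1177 in mouse 1, and Hgf averaged under the floor. Of 4 cholangiocyte markers 3 (Krt7, Krt19 and Epcam) averaged under the floor, as did Cnn1 of the 4 smooth muscle markers and Msln of the 3 mesothelial ones. Hepatocyte markers (7 genes) summed to 91319 in mouse 6 and up to 133742 in mouse 5.

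Earlier results on these arrays show that interferon response genes differ widely between the mice, so matrix genes were regressed on log2 Iigp1. Iigp1, a GTPase induced by interferon gamma, read 839 to 3256 in mice 7, 4, 5 and 1 and 10908 to 15220.4 in mice 2, 3, 8 and 6. None of the 30 matrix genes passed limma's test of the slope at an adjusted p under 0.05 (0 of 30), against 0.965% of all genes, 0.904% with a positive slope and 0.0616% with a negative one. At an unadjusted p under 0.05, 2 matrix genes had a positive slope (Col1a1 and Col9a2) and 0 a negative one, against 8.18% and 8.36% of all genes (16.5% in either direction). The slope was above 0 in 20 of the 30 (66.7%), against 46.4% of all genes, with a median of 0.04 against -0.01. Mmp12, among the 20, passed the brightness threshold only through mice 6 and 8, where Iigp1 was highest.

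Col1a1 had the lowest p of the 30. Its log2 intensity was higher by 0.26 ± 0.06 (SE, n = 8) for each log2 unit of Iigp1 (limma, adjusted p = 0.0692). Col1a1 passed when the mean of its probe sets was used (slope 0.38, limma adjusted p = 0.0457), with quantile normalization (0.24, adjusted p = 0.0489), with Psmb8 in place of Iigp1 (0.29, adjusted p = 0.0200) and without mouse 2 (0.29, adjusted p = 0.0160). The first of these settings includes the dimmer probe set, which passed the brightness threshold only through mouse 6, the mouse with the highest Iigp1. Col1a1 did not pass without any other single mouse (adjusted p from 0.107 to 0.196). In the settings where Col1a1 passed, in the order above, 1.99%, 1.64%, 3.55% and 4.31% of all genes passed. Settings where Col1a1 did not pass included no filter on dim probe sets (limma adjusted p = 0.296) and arrays scaled to a common median (0.0970). They also included limma without its trend and robust options (0.0864) and the array sets as a block (0.0520). Col9a2 followed with 0.19 ± 0.06 (adjusted p = 0.145), Col4a1 with 0.23 ± 0.10 (adjusted p = 0.325) and Col3a1 with 0.21 ± 0.10 (adjusted p = 0.337). Over the brightest probe sets the largest slope was that of Mmp12, with a large error (0.41 ± 0.21, limma adjusted p = 0.363). Mmp12 passed the brightness threshold only through mice 6 and 8, the mice with the highest Iigp1. A positive slope was therefore part of its selection. The lowest slopes were those of Lama4 (-0.19 ± 0.10, adjusted p = 0.380) and Timp3 (-0.15 ± 0.08, adjusted p = 0.366). The 4 highest sums of macrophage markers (9609 to 29911) were in the same 4 mice as the 4 highest Iigp1 values, and their part in these slopes was not tested.

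**Figure D5:**
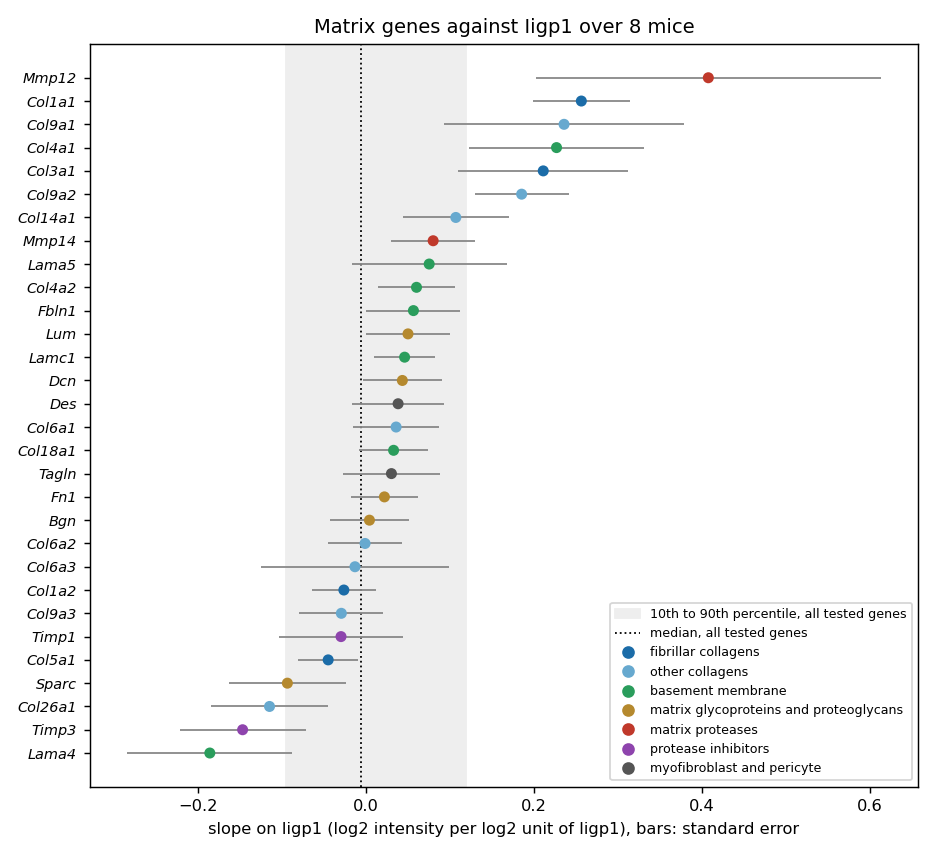
Slope of log2 intensity on log2 Iigp1 over the 8 mice for each tested matrix gene (points, coloured by role) with its standard error (bars), and the 10th to 90th percentile band and median of all tested genes. Mmp12 and Col1a1 lie at the upper end (0.41 and 0.26) and Timp3 and Lama4 at the lower end (-0.15 and -0.19), and none of the 30 passed the test. Mmp12 passed the brightness threshold only through mice 6 and 8, where Iigp1 was highest, so its positive slope was part of its selection.

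Genes that process matrix or signal to the cells that make it were read from a list of 56, of which 48 were on the array and 23 were bright enough. In the F test 0 of the 23 passed and in the slope test 0 of the 23 passed, against 0% and 0.965% of all genes, and 4 (17.4%) ranged at least 2-fold, against 23.4% of all genes. Ccn2 (connective tissue growth factor, a target of TGF beta) ranged most, from 62.6 in mouse 1, where it stood apart, to 258 in mouse 7. Sdc4 (syndecan 4, a cell surface proteoglycan) read 1473 in mouse 5 and 475 to 625 in the others. Smad4, which carries TGF beta signals, ranged 2.08-fold and the growth factor gene Pdgfa 2.03-fold, both lowest in mouse 5 (429.7 for Smad4 and 306 for Pdgfa). P4hb, part of the enzyme that hydroxylates collagen prolines, averaged 2402 ± 407 (SD, n = 8). Itgb1 (integrin beta 1, the common subunit of collagen and laminin receptors) averaged 6081 ± 483 and ranged 1.26-fold. The liver-made plasma proteins Vtn (vitronectin) and Plg (plasminogen) averaged 11100.2 ± 1168 and 25254 ± 3403. The probe sets read for Itgb1 and Plg are of the kind shared with related sequences, and that of P4hb is of the relaxed kind. Each is 1 of 2 probe sets of its gene. The TGF beta receptor genes Tgfbr1, Tgfbr2 and Tgfbr3 were too dim to test.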

How the data were processed

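Each of 8 liver RNA samples was hybridized to its own U74Av2 array and read on a Hewlett-Packard scanner, per the labels. The deposited intensities are linear, above 0 and already scaled between arrays: after trimming 2% of the values at either end, the mean was 500.4 on each. Which software summarized the probes was not given in sources used here. The number of arrays limits precision. All 8 columns matched a sample (0 left over).

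Log2 was taken after setting intensities under 37.2, the 25th percentile over all arrays, to that floor. Probe sets averaging at least 165.2 (median of all values) were tested, 6265 in all, without control probe sets. Symbols came from the platform annotation, 1 per probe set; all 70 matrix genes were found by Entrez identifier in a RefSeq list, and 0 symbols changed. A gene was read from its brightest probe set, and 5 of the 30 tested ones have names marking shared or relaxed probes.

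Spread was tested with limma's squeezeVar (trend on brightness, robust) by a one-sided F test (7 and 3.80 degrees of freedom), and slopes on Iigp1 with lmFit and eBayes (trend, robust), with Benjamini-Hochberg adjustment over all tested probe sets. Gene pairs (20 listed, 11 with both genes bright enough) were tested over all 40320 pairings of the mice. Both limma tests were tried on simulated data. The simulated noise was normal, with the SD usual at each gene's brightness. This setting is simpler than these data, so it does not show how the tests perform on them. R 4.3.3, limma 3.58.1 and Python 3.11.15 were used.

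The matrix genes, gene lists, pairs and the choice of Iigp1 were made with earlier results of these data known. All tested matrix genes could be named, and in each role class the brightest and up to 3 of the widest ranging are given with lowest, median and highest values. Of the pathway list the 4 brightest and the 4 widest ranging genes are named. The Tgfbr genes, the second probe sets and the comparison with the array sets were chosen after values were seen.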

Additional observations from a re-analysis of the deposited data

Results flagged for a closer look

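The 30 tested matrix genes, the 8 pathway genes described, Iigp1, 3 second probe sets and 4 marker sums gave 46 sets of values. In 5 of them 1 mouse lay farther from the others than Dixon's test allows at 95%. Chance exceeds this limit in about 1 of 20 sets picked without regard to their values. The 46 were not all picked so. Among the pathway genes 4 were taken for their wide range, Ccn2 and Sdc4 included, and the second probe sets after their values were seen. Col3a1 on its brightest probe set read 591 in mouse 6 and 139.7 to 266 in the others. Col6a3 read 102 in mouse 3 and 233 to 372 in the others. Col18a1 read 3831 in mouse 5 and 4778 to 5788 in the others. Ccn2 read 62.6 in mouse 1 and 141 to 258 in the others. Sdc4 read 1473 in mouse 5 and 475 to 625 in the others. Of 49 other tested pathway and marker genes, 3 had such a mouse. Hnf4a read 266 in mouse 5 and 702.5 to 1308 in the others. S100a8 read 556 in mouse 6 and 78.8 to 146 in the others. Pdgfra read 353.5 in mouse 4 and 265 to 301 in the others.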

How the results depend on the processing

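The count of matrix genes past the F test of spread was 0, also under each alternative run; since 0 of all 4869 genes passed, this says nothing about stability. The count with a range of at least 2-fold was 13 of 30, and it was 28 of 70 genes (40.0%) with no filter on dim probe sets (31.8% of all genes) and 7 of 18 (38.9%) with the stricter filter (19.2% of all genes), where fewer genes were tested, and 10 to 13 without each mouse in turn. The count following Iigp1 was 0, and it was 1 (Col1a1) with quantile normalization, with the mean of a gene's probe sets (1 of them bright only through mouse 6) and with Psmb8, and 0 to 1 without each mouse. Of the gene pairs 2 passed, and 1 passed with the stricter filter (5 pairs computed), 0 with arrays scaled to a common median, 0 by Spearman's rho, and 0 to 2 without each mouse. Scaling to a common median moved mouse 5 by 0.20 on the log2 scale and the others by at most 0.09. Of all genes tested, the number following Iigp1 was 47, and it was 1 with no filter, 80 with quantile normalization, 97 with the mean of a gene's probe sets, 173 with Psmb8, 136 with the array sets as a block (chosen after seeing the data) and 16 to 210 without each mouse. Causes were not tested. No paired analysis was possible because the mice form 1 group. Precision is limited by 8 arrays, and dim probe sets carry no order below the floor.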
